A study of Mus musculus with 16 samples.

Results

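The promoters of 8 genes of NAD and heme metabolism were followed through a day in mouse liver by Promoter Capture Hi-C (P-CHi-C), an assay that lists which restriction fragments lie close to captured promoter fragments, called baits. For NAD metabolism these were Nampt, Nmnat3, Nnmt and Sirt1. For heme metabolism they were Alas1, Por, Hmox1 and Fech. A gene was placed on the HindIII fragment that holds its annotated start (GENCODE vM1, mouse build mm9), and its contacts are all listed pairs with an end on that fragment. The starts of 6 of the 8 genes lay on bait fragments, out of 18165 baits in the lists. These 6 baits had 99 distinct contacts, of 247177 distinct pairs in the 4 lists.

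The livers came from male wild type C57BL/6 mice, labelled as 8 weeks old, fed ad libitum under a cycle of 12 h light and 12 h dark. By the study's methods, this was their age before a period under that cycle. Zeitgeber time (ZT) counts the hours from lights on, and livers were taken at lights on (ZT0), at ZT6, at lights off (ZT12) and at ZT18. The 16 samples were 3 pools of 2 livers per timepoint, with pool A on 2 lanes. Because pools had been merged by timepoint, there is 1 list for each and no replicate error, and the differences between timepoints have neither a test nor a replicate check. The lists held from 146262 pairs (ZT0) to 154775 pairs (ZT6). Every listed pair carries a CHiCAGO score of at least 5, a transformed p-value for reads above the number expected at that distance, so a ratio of scores is no ratio of reads and a pair missing from a list was not measured as low. Liver holds several cell types, and a bulk list cannot tell apart a contact in few cells from a weak contact in many.

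NAD carries electrons in metabolism and is consumed by sirtuins, which remove acetyl groups from proteins. Nampt is the rate-limiting enzyme that returns nicotinamide to NAD, Nmnat3 is a mitochondrial enzyme of the last step, Nnmt methylates nicotinamide and so takes it out of this salvage route, and Sirt1 is a nuclear sirtuin that spends NAD. Heme is the iron-holding group of hemoglobin, cytochromes and the circadian receptors of the Rev-erb family. In liver Alas1 catalyses the first and rate-limiting step of its synthesis, Fech inserts the iron at the end, Por passes electrons to the cytochrome P450 enzymes that use much of the liver's heme, and Hmox1 breaks heme down.

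Sirt1 and Nmnat3 could hardly be read in these lists. The start of Sirt1 (ENSMUSG00000020063, chr10:62842485-62856594) lay on a fragment that was no bait and had 0 listed pairs, and the nearest bait, that of Ctnna3, began 47.4 kb away. The start of Nmnat3 (ENSMUSG00000032456, chr9:98185750-98189087) was no bait either. It was listed once, as the far end of a pair with the bait of Copb2, 277.5 kb away, with a score of 5.07 at ZT0. A fragment that is no bait can be found only from a bait at its other end, so these values say nothing of the contacts of these 2 promoters. No other annotated transcript start of either gene lay on a bait.

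The sequences just before the starts show what the captured promoters look like. For the 4 baits with the most contacts the 150 bases before the gene start are given from the mm9 reference, 5′ to 3′ on the strand of the gene, with capitals for matches to any of 4 motifs searched on both strands: the E-box CACGTG of the clock's CLOCK and BMAL1 proteins, the D-box TTATGNAA, the ROR element TAGGTCA and the antioxidant response element TGACNNNGC.
Nampt (chr12:33505050-33505199, plus strand): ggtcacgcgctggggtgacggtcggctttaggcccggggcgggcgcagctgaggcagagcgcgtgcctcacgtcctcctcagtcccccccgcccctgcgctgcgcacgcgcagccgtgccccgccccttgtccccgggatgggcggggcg
Nnmt (chr9:48413259-48413408, minus strand): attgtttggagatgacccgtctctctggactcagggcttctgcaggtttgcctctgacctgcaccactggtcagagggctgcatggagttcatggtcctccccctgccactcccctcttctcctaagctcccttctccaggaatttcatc
Alas1 (chr9:106150458-106150607, minus strand): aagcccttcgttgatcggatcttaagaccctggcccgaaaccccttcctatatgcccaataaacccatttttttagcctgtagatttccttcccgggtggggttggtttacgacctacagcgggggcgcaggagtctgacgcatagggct
Hmox1 (chr8:77617340-77617489, plus strand): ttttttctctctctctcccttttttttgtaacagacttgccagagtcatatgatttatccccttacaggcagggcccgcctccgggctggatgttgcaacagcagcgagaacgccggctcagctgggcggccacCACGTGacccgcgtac
Among these motifs, a single match was found in the windows of the 8 genes from 250 bases before to 50 bases after the start: an E-box in Hmox1 at -16. An E-box was present in 7.78% of 22380 protein-coding promoter windows of this length, a D-box in 3.40%, a ROR element in 2.42% and an antioxidant response element in 12.5%. The window of Nampt had 76.3% G and C, that of Alas1 52.3% and that of Hmox1 52.7%. A match is a string of letters, not a bound site, and a window without one says nothing of the factor.

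The 6 promoters together had the fewest contacts at ZT0, 61, and the most at ZT12, 73, with 71 and 69 at ZT6 and ZT18. Per 100000 listed pairs this was 41.7 (ZT0), 45.9 (ZT6), 48.2 (ZT12) and 45.6 (ZT18). Alas1 had the most distinct contacts, 32, followed by Nampt with 28, Hmox1 with 18, Nnmt with 14, Por with 4 and Fech with 3. Over all baits the median was 9 and the quartiles were 4 and 21, so that 85.8% of baits had fewer contacts than Alas1 and 16.8% had fewer than Fech. The 6 bait fragments differed in length, from 3402 bp for Por to 12401 bp for Nnmt, and the part of length in these numbers was not tested. Of the 99 contacts, 42 were listed at all 4 timepoints, 42.4% (Wilson 95% interval 33.2 to 52.3), against 32.5% of all pairs, and 24 were listed at 1 timepoint only, where 35.2% of all pairs were. A further bait stood at the other end in 27 of the 99, 27.3% (19.5 to 36.8). The share over all pairs was 15.4%, taken over pairs and not from the baits. Counted from the baits, as for these promoters, a pair of baits is met from each end, so the share would be larger. That larger share was not computed, so 27.3% cannot be placed above or below all baits. The median distance was 120.5 kb (95% interval of the median 101.4 to 131.3) against 161.7 kb over all pairs. The intervals cover counting error only, and contacts of 1 promoter are not independent of each other. Alas1 alone raised the shares listed at all 4 timepoints and with a further bait: without it, they were 32.8% and 19.4% of 67 contacts.

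**Figure D1:**
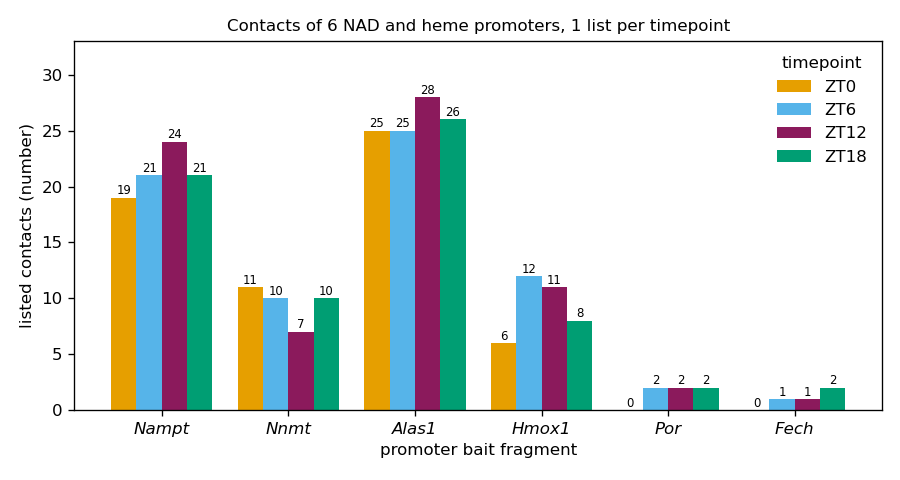
Number of listed contacts (vertical axis) of the 6 promoter baits (horizontal axis), with 1 bar and its value per timepoint and no error bar because each timepoint is a single merged list. Nampt and Alas1 have between 19 and 28 contacts at every timepoint, Nnmt has the fewest at ZT12 (7), Hmox1 the fewest at ZT0 (6), and Por and Fech have 0 to 2.

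Between timepoints 12 h apart, a bait was called different where its contacts per 100000 listed pairs differed at least 1.5 times and at least 1 of the timepoints had 5 contacts. For ZT0 and ZT12, Hmox1 was called higher at ZT12, with 6 contacts at ZT0 and 11 at ZT12 (1.77 times). Of 10249 baits, 14.4% were called in this direction. Nnmt was called higher at ZT0, with 11 contacts at ZT0 and 7 at ZT12 (1.63 times), as were 13.0% of baits. Nampt (19 and 24) and Alas1 (25 and 28) were not called, and Por and Fech had too few contacts. For ZT6 and ZT18, none of the 6 was called, where 13.9% of 10442 baits were called higher at ZT6 and 14.1% higher at ZT18. Hmox1 came closest, with 12 contacts at ZT6 and 8 at ZT18 (1.47 times higher at ZT6). In each direction between ZT0 and ZT12 the call fell on 1 of the 4 promoters with enough contacts, which beside these shares is a description of Hmox1 and Nnmt and no result about the group. Neither was called with a score minimum of 10, nor when the lists were named in the order of the study's own summary, which differs from the sample labels.

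The promoter of Nampt (ENSMUSG00000020572, chr12:33500806-33507213, gene start at 33505200 on the plus strand) reached into a long stretch without genes. All of its 28 contacts lay upstream, and 27 of them were intergenic fragments from 46.98 to 186.9 kb before the start, between the positions 33317402 and 33460813. The remaining contact was the bait of Hbp1, a transcriptional repressor, 869.1 kb upstream, listed at ZT12 with a score of 5.15. The same bait fragment also holds the start of Gdap10, so contacts of the 2 starts cannot be told apart. Of the 28 contacts, 15 were listed at all 4 timepoints (53.6%, 35.8 to 70.5).

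The contacts of Nampt fell into separate clumps. The farthest was a run of 5 adjoining fragments, chr12:33317402-33329157, 11.8 kb long and 179.2 to 186.9 kb upstream, whose fragments were each listed at every timepoint. Its fragment at 33320348-33321509 had the highest score of any Nampt contact, 15.80 at ZT12, with 14.27 at ZT0, 12.67 at ZT18 and 11.36 at ZT6. In the order ZT0, ZT6, ZT12, ZT18, used for every row of 4 scores from here on, the adjoining fragment at 33319227-33320347 scored 12.87, 7.27, 13.06 and 14.51, lowest at ZT6. The next clump held a run of 9 adjoining fragments, 125.6 to 148.3 kb upstream (33355438-33379986), of which 6 were listed at all 4 timepoints. Runs of 2 (33351214-33355403) and 3 (33380136-33389387) contacted fragments lay right beside it, set off only by short unlisted stretches. In the run of 9 the fragment at 33364162-33365831 scored 6.87, 13.48, 7.57 and 11.98, so that timepoints 12 h apart had like scores and those 6 h apart did not. Its neighbour at 33365832-33366892 scored highest at ZT18 (11.87) and lowest at ZT6 (6.89). Nearest to the gene, 46.98 to 56.33 kb upstream, 2 of 4 adjoining fragments were listed at all timepoints.

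No other promoter was listed with these fragments. All 27 contacted fragments of Nampt that were no baits were contacted by no other bait, where this was so for 59.1% of 111722 contacted fragments that were no baits. That share counts each fragment once. Counted from the baits, a shared fragment is met at each bait that contacts it, so the share would be smaller, and it was not computed. The bait most like Nampt in what it contacted, by the share of contacted fragments in common (Jaccard index), was that of Dld at only 0.0345, with 1 fragment shared. Of the 15 fragments listed at all timepoints, 3 held an E-box, where 25.9% of fragments of like length did on average, 7 a D-box (32.0%), 3 a ROR element (21.6%) and 6 an antioxidant response element (48.7%). The E-box nearest to the high ZT6 and ZT18 scores is shown because it lies in the fragment at 33364162-33365831, with the motif in capitals.
E-box of the fragment starting at 33364162 (chr12:33364618-33364677, plus strand): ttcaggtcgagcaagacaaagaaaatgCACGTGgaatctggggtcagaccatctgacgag
Among fragments of like length, 18.8% held an E-box.

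**Figure D2:**
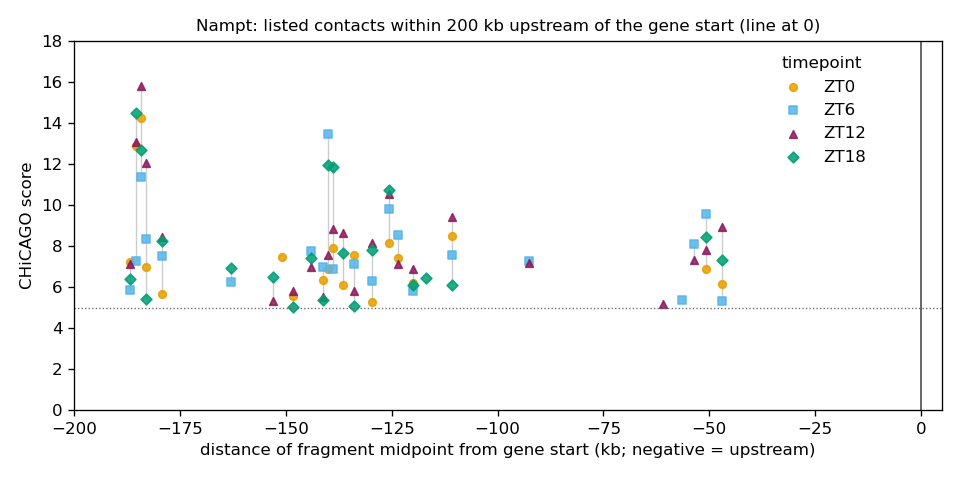
CHiCAGO scores (vertical axis) of the 27 upstream contacts of the Nampt promoter by distance of the fragment from the gene start in kb (horizontal axis), with 1 symbol per timepoint at which the pair was listed, a grey line joining the lowest and highest score of a fragment, and a dotted line at the list minimum of 5. The contacts lie in clumps, and the highest scores (up to 15.8 at ZT12) are in the clump farthest from the gene.

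Nnmt (ENSMUSG00000032271, chr9:48402933-48415333, gene start at 48413258 on the minus strand) faced the other way. All 14 contacts lay downstream, past the end of the gene, from 99.37 to 161.6 kb from the start, in and around Rexo2, a gene for an exonuclease of short RNA. The bait of Rexo2 at 48286943-48289694 was contacted at every timepoint, with scores of 7.91, 8.12, 9.39 and 12.01. Inside Rexo2, the intronic fragment at 48278956-48279607 scored 10.20, 8.11, 5.64 and 10.68, lowest at ZT12. The adjoining exonic fragment at 48279608-48280270 scored 5.58, 11.64, 6.33 and 7.57, highest at ZT6. The bait of Gm5616 scored 9.89 at ZT0 and between 5.12 and 6.46 at the other timepoints.

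Only these 4 of the 14 Nnmt contacts were listed at all timepoints (28.6%, 11.7 to 54.7), and 6 were listed at 3. Of the fragments that were absent from a single list, 3 were absent at ZT12 alone, all 3 of them in or beside Rexo2 with scores of 5.07 to 7.65 elsewhere. The bait of Rbm7 and Gm5617 was listed at ZT18 only, with a score of 7.36. Nnmt shared 6 contacted fragments with the bait of Zw10, 454.1 kb away, which is 42.9% of the contacts of Nnmt and 37.5% of those of Zw10 (Jaccard index 0.25), and the 2 baits were not listed with each other.

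Alas1 (ENSMUSG00000032786, chr9:106140162-106151423, gene start at 106150457 on the minus strand) had the densest set of contacts. Directly upstream of the gene, a run of 12 adjoining fragments, chr9:106153729-106184045, was in contact with its promoter over 30.3 kb, from 5.684 to 32.18 kb before the start, and ended on the bait of Poc1a, a centriole gene. Of the 12, 11 were listed at all 4 timepoints. The highest score in the run, and of any contact of the 6 promoters, was that of the fragment at 106162684-106164042, with 13.29, 12.99, 26.01 and 19.61. The fragment at 106168609-106169449 scored 9.27, 7.70, 19.47 and 12.86, and the one nearest to the gene, at 106153729-106158552, 15.29, 13.51, 19.35 and 14.33. All 3 were highest at ZT12 and lowest at ZT6.

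Over the 11 fragments of the run listed at all timepoints, the median score was 10.31 (ZT0), 9.77 (ZT6), 16.14 (ZT12) and 12.87 (ZT18). The highest score was at ZT12 in 10 of the 11, and the Poc1a bait was the exception, with 9.17, 10.83, 10.30 and 10.97. Among all 80235 pairs listed at all timepoints, 25.6% had their highest score at ZT12. The ranges of the run overlapped between timepoints, since ZT12 spanned 10.30 to 26.01, ZT18 8.25 to 19.61, ZT0 9.17 to 15.29 and ZT6 7.70 to 13.51. Adjoining fragments are neighbours on 1 stretch of chromatin and not independent measurements. The other 20 contacts of Alas1 did not share this order: of 9 listed at all timepoints, 5 were highest at ZT0, 2 at ZT6 and 2 at ZT12. The bait fragment also holds the start of 4930500F10Rik, and the 2 starts cannot be told apart.

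The same stretch was contacted by other promoters of its neighbourhood. Baits other than Alas1 formed 76 listed pairs with these 12 fragments, 33 of them in all 4 lists, 14 with the highest score at ZT12, 12 at ZT18, 4 at ZT0 and 3 at ZT6. Among them, the bait of Glyctk formed 9 pairs with the run and that of Pcbp4 formed 8. Of the 18 contacted fragments of Alas1 that were no baits, 17 were contacted by a further bait, where Nampt had 0 of 27. No further bait contacted 5 of 13 such fragments of Hmox1, 6 of 10 of Nnmt, 0 of 2 of Por and 2 of 2 of Fech. Over all contacted fragments that were no baits, each counted once, 59.1% had no further bait. Counted from the baits, as for these promoters, the share would be smaller and was not computed. Hmox1 and Nnmt can therefore not be placed above or below all baits.

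Motif matches of the run are shown because it holds the highest scores of the 6 promoters. The lines give the E-boxes of its intergenic fragments, whatever their score, and both matches of the fragment with the highest score, each in capitals with the bases around it on the plus strand. Matches to the other motifs in the remaining fragments are not printed.
E-box of the fragment starting at 106158553 (chr9:106158576-106158635, plus strand): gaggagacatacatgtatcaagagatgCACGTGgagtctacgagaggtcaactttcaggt
E-box of the fragment starting at 106158553 (chr9:106160341-106160400, plus strand): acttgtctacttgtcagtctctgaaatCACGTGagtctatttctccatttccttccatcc
E-box of the fragment starting at 106161556 (chr9:106162338-106162397, plus strand): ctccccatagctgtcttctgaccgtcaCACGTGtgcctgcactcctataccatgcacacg
antioxidant response element of the fragment starting at 106162684 (chr9:106163151-106163213, plus strand): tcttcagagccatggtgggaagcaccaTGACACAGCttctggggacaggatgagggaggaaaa
D-box of the fragment starting at 106162684 (chr9:106163951-106164012, plus strand): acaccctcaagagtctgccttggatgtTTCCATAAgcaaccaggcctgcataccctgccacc
E-box of the fragment starting at 106169450 (chr9:106170413-106170472, plus strand): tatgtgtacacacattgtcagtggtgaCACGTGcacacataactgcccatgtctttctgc
E-box of the fragment starting at 106178637 (chr9:106179961-106180020, plus strand): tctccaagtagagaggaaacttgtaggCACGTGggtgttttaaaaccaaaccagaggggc
Of the 11 fragments of the run listed at all timepoints, 5 held an E-box, where 28.4% of fragments of like length did on average, 3 a D-box (35.4%), 2 a ROR element (23.6%) and 8 an antioxidant response element (54.4%). The fragment with the highest score held no E-box, and had a D-box and an antioxidant response element. Of all 20 Alas1 fragments listed at all timepoints, 11 held an E-box, where 36.8% of fragments of like length did on average, 16 an antioxidant response element (63.7%), 7 a D-box (43.5%) and 5 a ROR element (31.0%). The fragments of like length were not matched on being baits, and several of the 20 were baits of other genes. Those of D030055H07Rik, Glyctk, Wdr82, Poc1a, Acy1, Abhd14a and Parp3 held an E-box, and those of Pcbp4 and Gpr62 held none.

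**Figure D3:**
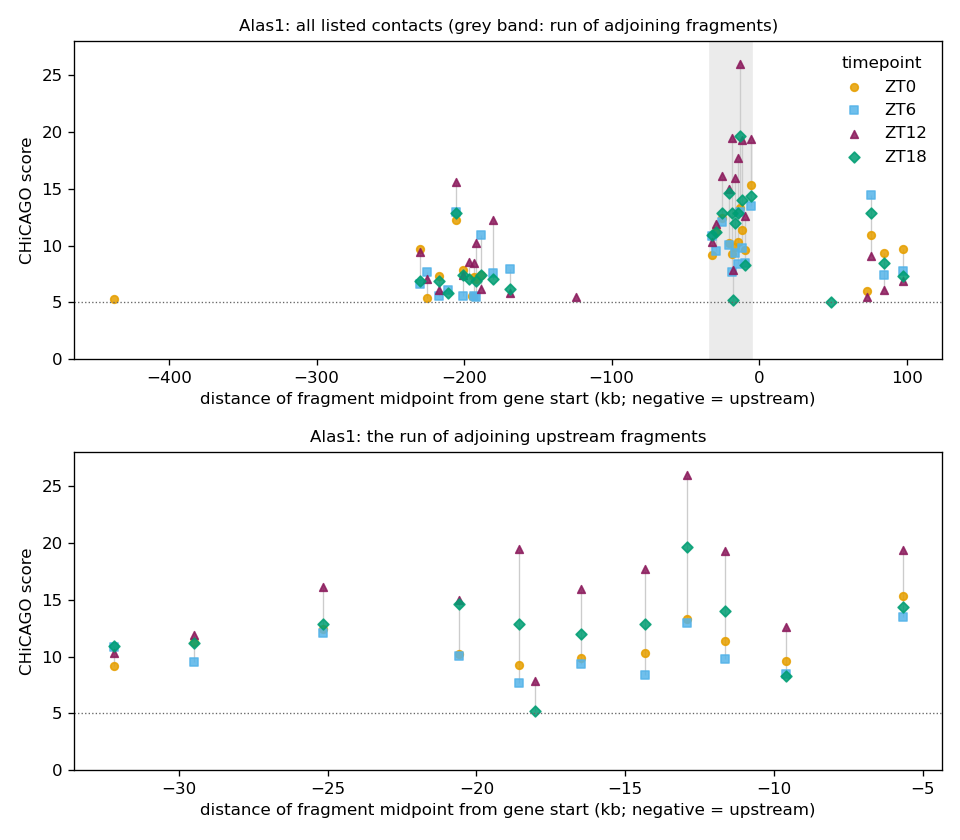
CHiCAGO scores (vertical axis) of the contacts of the Alas1 promoter by distance of the fragment from the gene start in kb (horizontal axis), for all contacts above and for the run of 12 adjoining fragments below, with 1 symbol per timepoint at which the pair was listed, a grey line from the lowest to the highest score and a dotted line at the list minimum of 5. In the run the ZT12 symbols are the highest in 11 of the 12 fragments and reach 26.01, while in the clumps farther upstream and downstream no single timepoint is highest throughout.

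Away from the run, Alas1 was listed with promoters on both sides. Of its 32 contacts, 14 were baits (43.8%, 28.2 to 60.7). Upstream, Pcbp4, an RNA-binding protein gene, scored 12.24, 12.96, 15.59 and 12.84, highest at ZT12. The bait of Acy1, an enzyme that removes acetyl groups from amino acids, scored 7.38, 10.97, 6.19 and 7.38, highest at ZT6. Rpl29, a ribosomal protein gene, was not listed at ZT0 and scored 7.54, 12.29 and 7.02 at the other timepoints. Parp3, a poly(ADP-ribose) polymerase and thus a user of NAD, scored 9.73, 6.57, 9.39 and 6.91, with ZT0 and ZT12 above ZT6 and ZT18. Downstream, Wdr82, a subunit of a histone methyltransferase complex, scored 10.97, 14.48, 9.04 and 12.90, lowest at ZT12, and Glyctk, a glycerate kinase, scored 9.31, 7.43, 6.04 and 8.49, also lowest at ZT12. The promoters listed with Alas1 thus had their highest scores at different timepoints.

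The bait most like Alas1 in what it contacted was that of Twf2, 41.4 kb away, with 19 contacted fragments in common, 59.4% of the contacts of Alas1 and 82.6% of those of Twf2 (Jaccard index 0.528). The 2 baits were not listed with each other.

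Hmox1 (ENSMUSG00000005413, chr8:77616036-77624018, gene start at 77617490 on the plus strand) had the most contacts at ZT6 (12) and ZT12 (11) and fewer at ZT18 (8) and ZT0 (6), and 3 of 18 were listed at all timepoints (16.7%, 5.84 to 39.2), with 7 listed at a single one. The 3 were the bait of Mcm5, a subunit of the replicative helicase, 17.3 kb downstream, a 233 bp intergenic fragment upstream at 77595364-77595596, and a fragment in Tom1, a gene of vesicle transport, at 77580431-77590406. Mcm5 scored 7.14, 7.44, 10 and 7.69. The 233 bp fragment scored 5.21, 6.69, 11.44 and 7.40, and the Tom1 fragment 5.02, 7.72, 9.36 and 5.72. All 3 were lowest at ZT0 and highest at ZT12, and the ZT0 scores of the second and the third lay close to the list minimum of 5.

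The other contacts of Hmox1 were each missing from at least 1 list. The bait of Tom1 was listed at 3 timepoints with 6.47 at ZT0, 7.52 at ZT12 and 5.98 at ZT18. That of Hmgxb4 was listed at ZT6 (8.58) and ZT18 (6.20), and that of Rasd2, a small GTPase gene, at ZT0 (6.02), ZT6 (8.08) and ZT12 (5.89). The longest contact, with the bait of the mineralocorticoid receptor gene Nr3c2 over 1803 kb, was listed at ZT6 only with a score of 5.57. Hmox1 and Mcm5, which were listed with each other, had 8 contacted fragments in common, 44.4% of the contacts of Hmox1 and 57.1% of those of Mcm5 (Jaccard index 0.333).

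**Figure D4:**
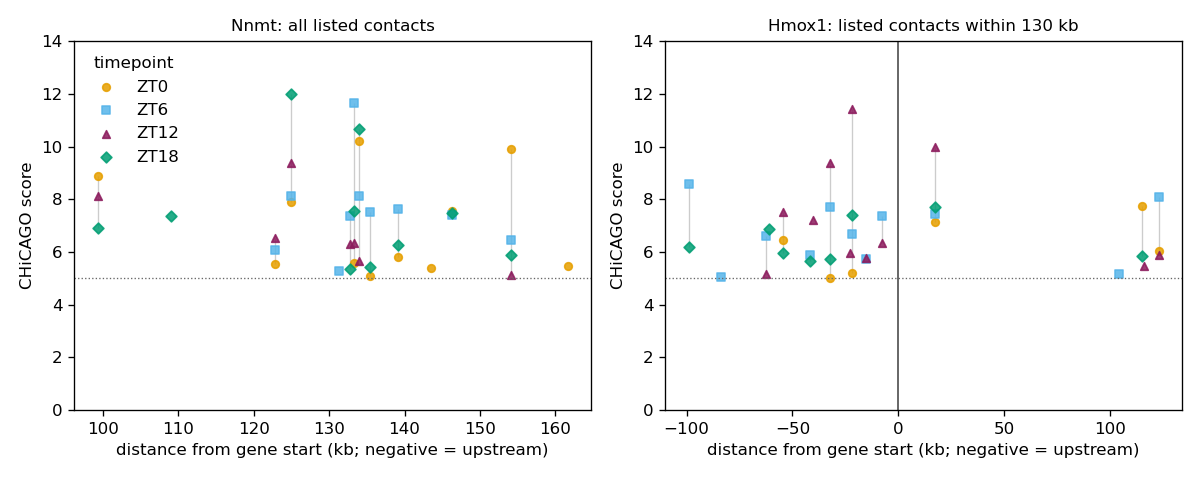
CHiCAGO scores (vertical axes) of the contacts of Nnmt (left, all 14) and Hmox1 (right, those within 130 kb) by distance of the fragment from the gene start in kb (horizontal axes), with 1 symbol per timepoint at which the pair was listed, a grey line from the lowest to the highest score and a dotted line at the list minimum of 5. The Nnmt contacts all lie downstream with several lowest or absent at ZT12, and the 3 Hmox1 contacts listed at all timepoints are highest at ZT12.

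Por (ENSMUSG00000005514, chr5:136142702-136146103, gene start at 136145903 on the plus strand) had 4 contacts, none at ZT0 and 2 at each other timepoint. At ZT12 these were an intronic fragment 43.1 kb downstream, inside Por itself (5.84), and the bait of Tmem120a (5.94). At ZT6 and ZT18 they were a fragment in Styxl1 (5.71 and 6.76) and the bait that holds the starts of Styxl1 and of Mdh2, the mitochondrial malate dehydrogenase (5.64 and 6.33). No contact was listed at both ZT12 and another timepoint, and all scores were near the minimum of 5.

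Fech (ENSMUSG00000024588, chr18:64640649-64651414, gene start at 64648720 on the minus strand) had 3 contacts, none at ZT0. The bait of Onecut2, a liver transcription factor gene, was listed at ZT12 (6.54) and ZT18 (5.32). An intergenic fragment beside it was listed at ZT6 (6.43). The fragment that holds the start of Wdr7, 781.6 kb downstream and no bait, was listed at ZT18 (7.90). Nothing was shared by all timepoints.

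Over the 42 contacts listed at all 4 timepoints, 22 had their highest score at ZT12, 8 at ZT0, 6 at ZT6 and 6 at ZT18. This count was chosen after seeing the data. Over all pairs listed at all timepoints 25.6% were highest at ZT12, 22.2% at ZT0, 26.2% at ZT6 and 26.0% at ZT18. The 22 were made up of 12 of 20 contacts of Alas1, 7 of 15 of Nampt, 3 of 3 of Hmox1 and 0 of 4 of Nnmt. With the upstream run of Alas1 set apart, 12 of the other 31 were highest at ZT12, and without Alas1 altogether 10 of 22 were. The lowest score was at ZT6 in 19 and at ZT0 in 12 of the 42, against 24.8% and 28.6% of all such pairs. It was at ZT12 in 6 and at ZT18 in 5, against 23.6% and 23.1%. Of the 19 lowest at ZT6, Alas1 supplied 13, with 9 in its upstream run, and Nampt 6. The score at ZT12 was at least 1.5 times that at ZT0 in 9 of the 42, where 7.94% of all such pairs were, and the reverse held in 3, where 6.29% were. It was at least 1.5 times that at ZT6 in 9 of the 42, where 6.62% were. The upstream run of Alas1 held 5 of the 9 against ZT0 and 5 of the 9 against ZT6. The naming of the timepoints bears on this, since the study's own summary of its lists assigns 3 of the 4 totals to timepoints other than the sample labels do, and in that order 6 of the 42 were highest at ZT12 and the 22 were highest at ZT6. The sample labels were followed here.

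**Figure D5:**
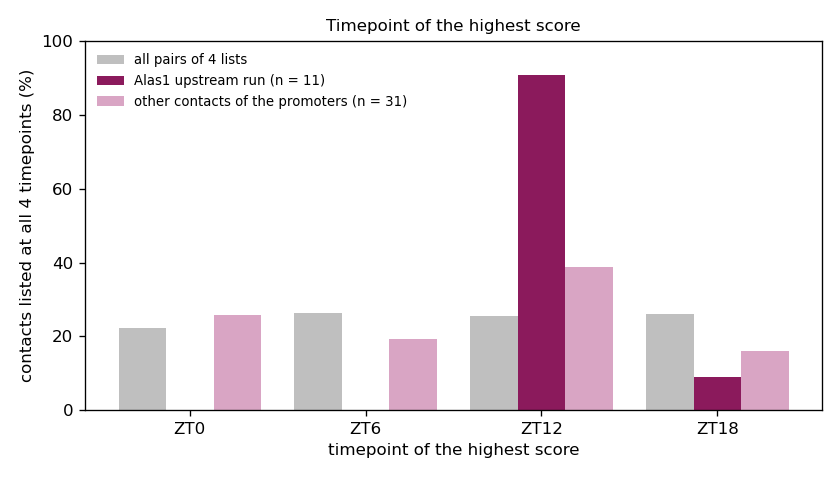
Share of contacts listed at all 4 timepoints (vertical axis, %) by the timepoint of their highest score (horizontal axis), for all 80235 such pairs (grey), the 11 contacts of the upstream run of Alas1 (dark) and the other 31 contacts of the promoters (light), with no error bars. In the run 10 of 11 are highest at ZT12, while 25.6% of all pairs are.

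The other genes of the 2 pathways were listed to set the promoters in context. Of 26 further genes of NAD synthesis and use, 22 had their start on a bait, with a median of 12.5 distinct contacts, 31.4% of which appeared in all 4 lists. Of the 15 with enough contacts at ZT0 or ZT12, 2 were called higher at ZT12, where 14.4% of all baits were, and 3 higher at ZT0, where 13.0% were, so both counts stand near the background. Those higher at ZT12 were Tdo2, the first enzyme of tryptophan breakdown towards NAD, whose numbers of contacts were 7, 24, 18 and 8 in the order of the timepoints, and Aox1, an oxidase that acts on the product of Nnmt, with 8, 15, 18 and 12. Those higher at ZT0 were Kynu, Sirt6 and Parp1. Of the 15 with enough contacts at ZT6 or ZT18, 2 were called higher at ZT18 (Naprt and Kmo), where 14.1% of all baits were, and 2 higher at ZT6 (Kynu and Tdo2), where 13.9% were. The promoter of Nnt, which couples NADH to NADPH in mitochondria, was among the steadiest, with 29 to 31 contacts at each timepoint and 27 of 33 listed at all of them.

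Of 23 further genes of heme synthesis, transport and breakdown, 21 had their start on a bait, with a median of 14 contacts, 48.7% of which appeared in all 4 lists. Of the 15 with enough contacts at ZT0 or ZT12, 0 were called higher at ZT12 (14.4% of all baits) and 1 higher at ZT0 (13.0% of all baits), which was Bach1, the heme-sensing repressor of Hmox1, with 15, 12, 10 and 16 contacts. The promoters with the most contacts were those of Slc25a37, the mitochondrial iron importer, with 38 of 50 contacts listed at all timepoints, and of Urod, the fifth enzyme, with 26 of 47.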

How the data were processed

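P-CHi-C reads were mapped to mm9 and filtered with HiCUP by the authors, and interactions were called with CHiCAGO on the merged pools of each timepoint. The deposited column is the CHiCAGO score of a fragment pair. It holds no counts, so the depth behind a score is unknown. HindIII fragments were cut from the mm9 sequence (823377 in all) and matched 129886 of 129887 fragments in the lists. Pairs were counted from both ends, and a bait is any fragment listed on the bait side at a timepoint. Gene starts came from GENCODE vM1, and distances run between fragment midpoints unless given from the gene start. The software was python 3.11.15 with numpy 2.4.6, pandas 2.3.3, pysam 0.24.0 for sequences and scipy 1.17.1 for Wilson intervals, and the counting steps were tested on simulated data. The 8 genes, the pathway lists (30 NAD and 27 heme genes, of which Nmrk1 was not found in the annotation), the motifs and the rule for named contacts (the strongest of each promoter, and the promoters among them) were chosen with earlier results of these data known. Calls use a fold of 1.5 and at least 5 contacts at 1 of the timepoints. As alternatives, the score minimum was set to 7 or 10, lists were trimmed to equal size, all transcript starts or a nearest bait within 5 kb were used, the other end was given a tolerance of 10 kb, distances were taken as gaps, baits were taken per timepoint, raw numbers replaced those per 100000 pairs, and the other timepoint order was used. The count of contacts by the timepoint of their highest score, its recount on ranks and leaving out Alas1 were chosen after seeing the data. Setting apart the upstream run of Alas1 was not planned either. Reads, RNA and the authors' differential contacts were not used here.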

Additional observations from a re-analysis of the deposited data

How the results depend on the processing

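No paired analysis was possible because each timepoint was deposited as a single merged list, which also prevents leaving out a replicate. Equal list sizes left every value within 1.5 times or within its 95% interval. So did gap distances (median 113.2 kb), baits of the same timepoint (27.27%) and ranked scores (22 of 42 highest at ZT12). Raw numbers did as well, with 3 calls, the added one Hmox1 with 12 contacts at ZT6 and 8 at ZT18. All transcript starts and the nearest bait within 5 kb used the same baits, so their values could not change. No other transcript start lay on a bait, and the nearest baits of Sirt1 and Nmnat3 were 47.4 and 131.9 kb away. A score of at least 7 left 38, 44, 44 and 38 contacts in the order of the timepoints, with 27.69% in all 4 lists. It gave 4 calls between timepoints 12 h apart and 13 of 18 contacts highest at ZT12. Alas1 alone had 11 of 13 highest at ZT12, and the share over all pairs was not computed at this minimum. The added calls were Nampt, higher at ZT12 (16 contacts) than at ZT0 (10), and Hmox1, higher at ZT6 (5) than at ZT18 (2). A score of at least 10 left 12, 11, 20 and 19 contacts, 22.22% at all timepoints and a median distance of 70.96 kb, and its 2 calls were no longer Nnmt and Hmox1 but Nampt (2 and 5) and Alas1 (8 and 12), both higher at ZT18 than at ZT6. Fewer pairs pass a higher minimum by construction. When a fragment within 10 kb could stand in for the contacted one, 81.82% were listed at all timepoints. This tolerance was not applied to all pairs, and runs of adjoining contacts raise the share by construction. In the other timepoint order 0 promoters were called and 6 of 42 contacts (1 of 20 of Alas1) were highest at ZT12. Without Alas1 the promoters had 36, 46, 45 and 43 contacts, 32.84% at all timepoints, 19.40% with a further bait and 10 of 22 highest at ZT12. Of 167 values of single promoters, 41 moved, 38 of them with the higher score minima. Fixed by construction among the 167 were 24 values of all transcript starts, 24 of the nearest bait and 20 without Alas1. The order of scores between timepoints near the minimum of 5 cannot be read, and depth per list is not known.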
